A study of Danio rerio with 48 samples.

Results

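Collagen chain genes were taken as every gene of the count table whose name starts with col, a number, the letter a and a number. The pattern matched 54 of 25377 genes, of which 52 encode collagen chains. The other 2, col4a3bpa and col4a3bpb, are named for a different protein, the ceramide transfer protein, and are left out of the counts below. All 52 chains passed the filter on low counts, and 3 of them had a mean under 1 on the log2 CPM scale. CPM here are counts scaled to the total of the library times its TMM factor, which adjusts libraries to one another. The factor ranged from 0.538 (replicate A of 2.8 µM at 4 dpf) to 1.43 (replicate I of 0.88 µM at 5 dpf).

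Collagens are triple helices of like or unlike chains that are hydroxylated, folded and secreted, and then assembled outside the cell. Fibrillar collagens (here types I, V and XXIV) form the cables of skin, tendon and bone. The cartilage group holds the type II fibril and the type IX and XI chains that sit on and in it, type XXVII, and type X, which is made by hypertrophic chondrocytes and, in zebrafish, also by bone-forming cells. Basement membranes are sheets of type IV network, joined by types XV and XVIII and anchored below the epidermis by type VII. In the larval zebrafish head these genes serve the pharyngeal skeleton, the first dermal bones, the skin and the vessels.

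RNA was from heads of larvae of a mixed wild-type zebrafish line, cut in front of the swim bladder and pooled by 15. Embryos had been kept singly in wells with perfluorooctane sulfonate (PFOS), a persistent fluorinated surfactant, at 0.88, 1.57 or 2.8 µM, or with vehicle alone. Vehicle was 0.4% DMSO and was present in every group. Heads were taken at 4 or 5 days post fertilization (dpf), which gave 8 groups of 6 pools. Whether the pools stem from different clutches is not in the labels, and every p-value here rests on the spread among pools alone.

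Libraries held between 14475198 and 28926584 counts. In 3 libraries the median correlation with the others of their age was under 0.95 (replicate A of 2.8 µM at 4 dpf, and replicates D of 1.57 µM and H of 0.88 µM at 5 dpf), and in the rest it was at least 0.959. Markers of the exocrine pancreas, which lies behind the head, were higher at 5 dpf for 8 of 8 genes averaged over the 4 concentrations. At 1.57 µM alone 0 of 8 passed. Their summed level was 1.72 to 33 CPM over the 24 libraries of 4 dpf and 2.97 to 4533 CPM over those of 5 dpf. At 5 dpf it had medians of 412 CPM in DMSO and 64.4, 14.6 and 354 CPM at 0.88, 1.57 and 2.8 µM. At 1.57 µM and 5 dpf 7 of 8 were lower than in DMSO, beside 0.0799% of all genes (edgeR). The part of such tissue in the age and PFOS differences below was not tested. Bulk RNA cannot tell fewer cells of a type from less RNA per cell. Counts are not corrected for gene length, so levels are compared between libraries and not between genes.

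Between 4 and 5 dpf, collagen chains moved in both directions, and most cartilage chains were lower. Averaged over the 4 concentrations (24 pools against 24), 8 of 52 chains were higher at 5 dpf and 15 were lower at an adjusted p under 0.05 (edgeR quasi-likelihood test). This is 15.4% and 28.8% of the chains, beside 22.8% higher and 20.5% lower among all 20021 genes tested, so the family as a whole lay near the background. The median log2 fold change was -0.08 over the chains and 0 over all genes tested. In the cartilage group 9 of 12 chains (75.0%) were lower and 1 (8.33%) was higher. Taken alone, the DMSO pools gave a smaller median for this group, -0.19 with 0 of 12 lower, than those at 0.88, 1.57 and 2.8 µM, with -0.61, -0.62 and -0.51 and 2, 3 and 2 lower; no chain passed the test of that difference. Of the 9 fibrillar chains 2 were higher (22.2%) and none lower. Of the 11 basement membrane chains 2 were higher and 2 lower (18.2% each).

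**Figure D1:**
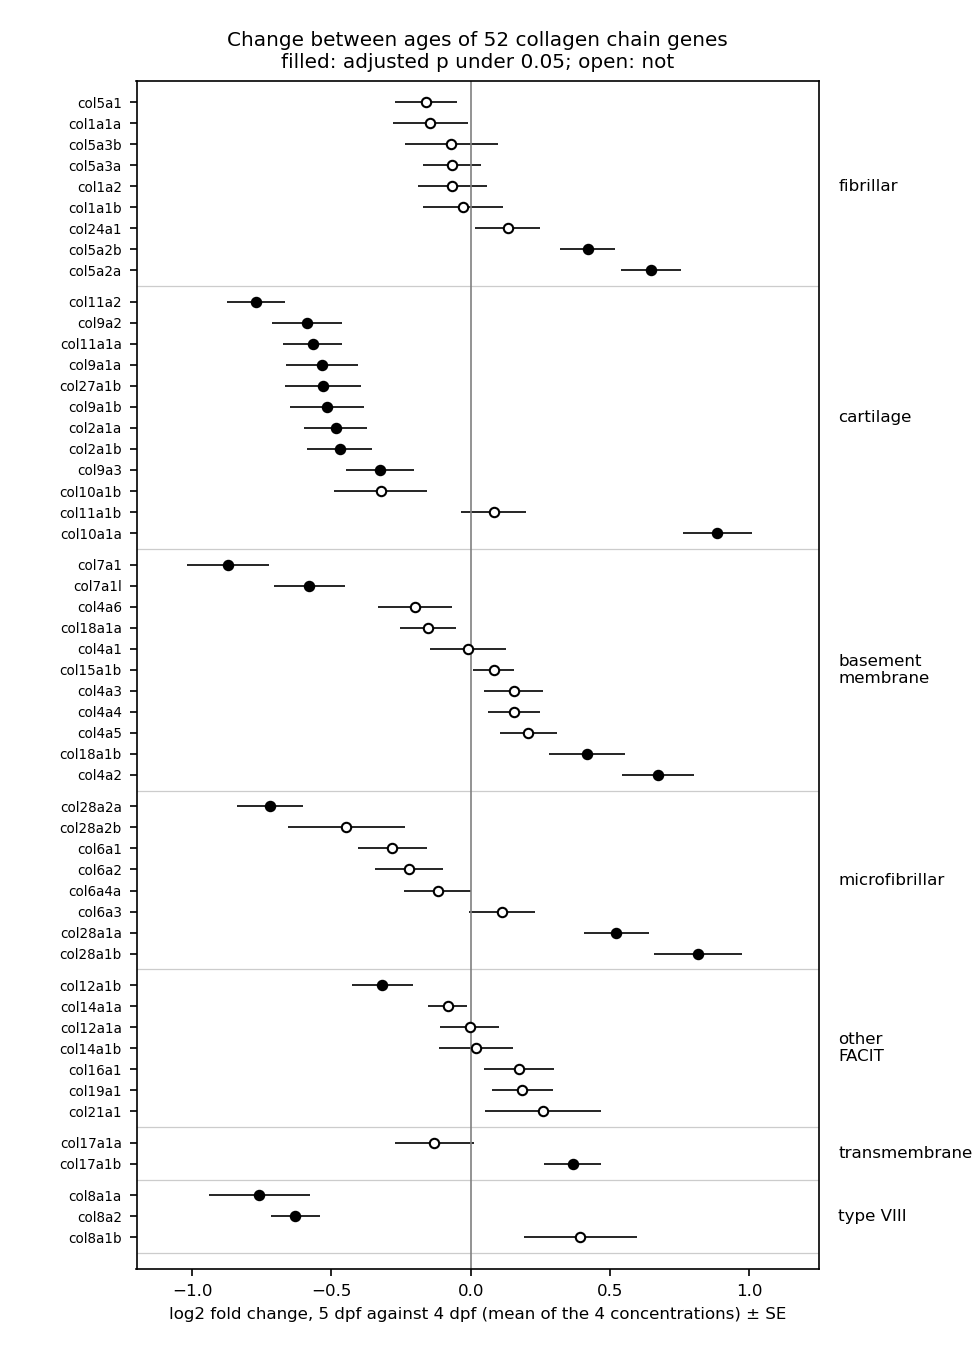
The log2 fold change of each of the 52 chains at 5 dpf against 4 dpf, averaged over the 4 concentrations, with its standard error; filled points passed an adjusted p of 0.05. Among the cartilage chains 9 filled points lie left of 0 and col10a1a lies alone to the right at 0.88, while the 3 type I chains (col1a1a, col1a1b, col1a2) are open and close to 0.

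The cartilage fibril chains fell together. The gene col2a1a (chromosome 8, 21195420 to 21219474, GRCz11) encodes the chain of type II collagen, the main fibril of cartilage. It had a lowest, median and highest level of 15403, 26044 and 47967 CPM at 4 dpf and of 12019, 18602 and 27282 CPM at 5 dpf. Over all 24 libraries the ages overlapped, with lower values at 5 dpf, and the log2 fold change was -0.48 ± 0.11 (SE, n = 24 and 24, adjusted p = 0.0004993, edgeR). On the quantile normalized values it was -0.25 (limma, adjusted p = 0.0132). Its duplicate col2a1b changed by -0.47 ± 0.12 on the same scale.

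The type XI chain col11a2 (chromosome 19, 7179740 to 7225207), which forms the core of the cartilage fibril with type II, ranged from 1966 to 4955 CPM at 4 dpf with a median of 3067. At 5 dpf it ranged from 1069 to 2664 CPM with a median of 1764. The 5 dpf median lay under the lowest 4 dpf value, though the ranges overlapped, and the log2 fold change was -0.77 ± 0.11 (adjusted p = 5.418e-08, edgeR). The other type XI chain of this fibril, col11a1a, fell by 0.57 on the log2 scale. Its duplicate col11a1b was at 0.08 ± 0.12 and did not pass.

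Type IX collagen decorates the surface of the type II fibril, and its 4 chain genes were all lower at 5 dpf. Their log2 fold changes were -0.59 for col9a2, -0.54 for col9a1a, -0.52 for col9a1b and -0.33 for col9a3, which was -0.52 on the quantile normalized values. The fibrillar chain col27a1b, of a type found in cartilage, changed by -0.53 ± 0.14. Of the 10 chains of types II, IX, XI and XXVII, 9 therefore fell, with a median of -0.52, and the remaining one was col11a1b. This is 90.0%, beside 75.0% of the whole cartilage group and 20.5% of all genes. The subset leaves out type X and was not a planned class, so its share is a description only.

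Type X moved the other way in 1 of its 2 genes. The gene col10a1a (chromosome 17, 15542077 to 15546863) ranged from 296 to 1147 CPM at 4 dpf, with a median of 506, and from 707 to 1973 CPM at 5 dpf, with a median of 972. It was higher at 5 dpf at every concentration, and the groups of the 2 ages did not overlap in DMSO (299 to 670 against 707 to 1062 CPM) or at 1.57 µM (382 to 680 against 722 to 1487 CPM). In DMSO it was the only chain of 52 whose ages did not overlap, beside 8.22% of all genes. At 1.57 µM there were 6 such chains, beside 7.48% of all genes: col10a1a, col2a1a, col11a2, col27a1b, col28a2a and col8a2. At 0.88 µM there were 0 (3.39% of all genes) and at 2.8 µM 1, col28a1b (6.72%). The log2 fold change was 0.88 ± 0.12 (adjusted p = 9.383e-08, edgeR). The duplicate col10a1b, with medians between 4.08 and 7.89 CPM in the 8 groups, was at -0.32 ± 0.17 and did not pass.

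**Figure D2:**
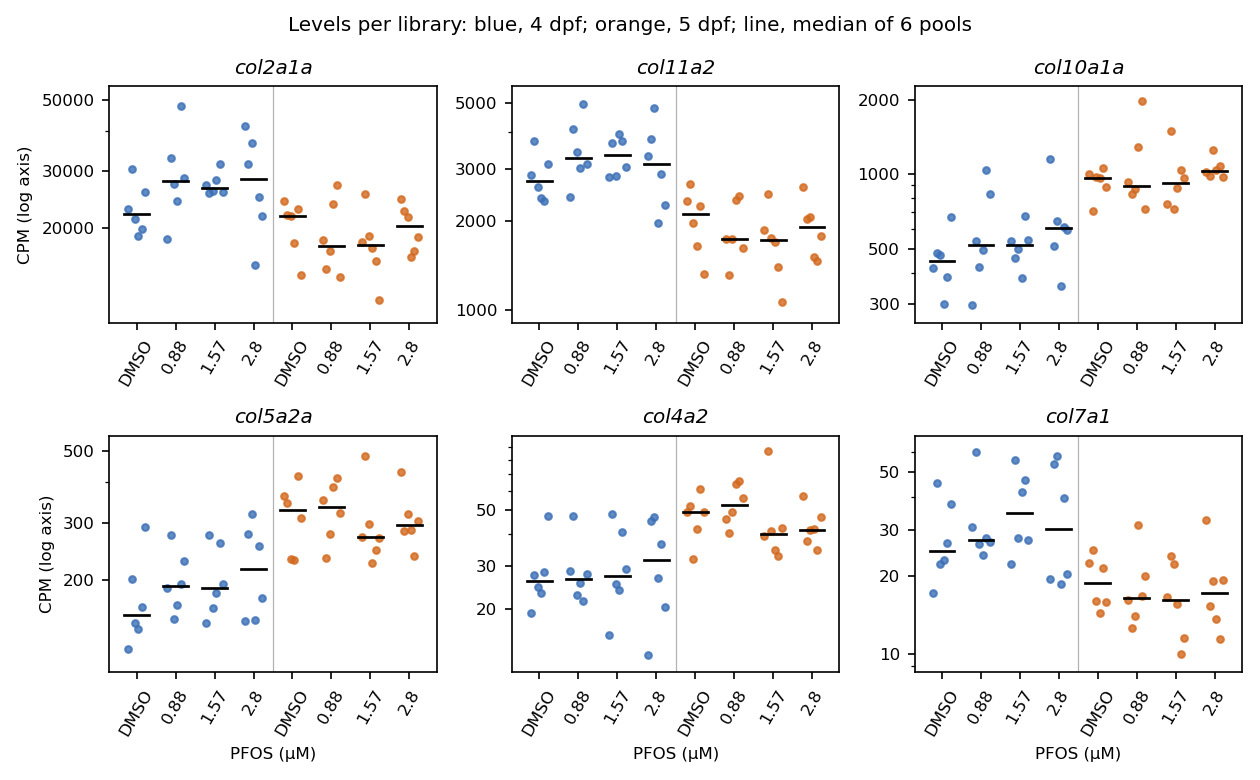
Levels in CPM on log axes of 6 chains in each of the 48 libraries, by PFOS concentration, with 4 dpf in blue, 5 dpf in orange and a line at the median of 6 pools. The chains col2a1a, col11a2 and col7a1 lie lower at 5 dpf, and col10a1a, col5a2a and col4a2 higher; within an age the 4 concentrations overlap.

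Genes that mark cartilage without being collagens moved in part with these chains. Of 12 such markers 6 (50.0%, beside 20.5% of all genes) were lower at 5 dpf, among them the matrix proteins matn1 (-1.16), hapln1b (-1.09) and acana (-0.66, the aggrecan core protein), and 2 were higher, ucmaa (1.03) and sox9a (0.31). Their summed level ranged from 3585 to 9209 CPM at 4 dpf and from 1959 to 5124 CPM at 5 dpf. These counts are for the mean of the 4 concentrations. In DMSO alone 1 of 12 was lower (background 4.84%) and 0 higher (9.34%), with a median of -0.11. At 0.88, 1.57 and 2.8 µM 4, 6 and 4 were lower (4.34%, 6.19% and 5.27%) and 1, 1 and 0 higher (8.41%, 8.98% and 7.1%). The medians there were -0.48, -0.68 and -0.46, and no gene passed the test of that difference. Bone markers other than collagens moved with col10a1a: 5 of 9 tested (55.6%, beside 22.8% of all genes) were higher and none lower. Those were spp1 (1.64), ifitm5 (0.85), sparc (0.74), sp7 (0.59) and panx3 (0.36), with a summed level of 137 to 291 CPM at 4 dpf and 188 to 732 CPM at 5 dpf. The part of cell numbers in either set of changes was not tested.

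Type I collagen, the main fibril of skin, tendon and bone, gave no call between ages. The gene col1a1a (chromosome 3, 23221047 to 23239459) had medians of 8487 CPM at 4 dpf and 7918 CPM at 5 dpf, within ranges of 4925 to 15678 and 3999 to 13321 CPM. Its ranges overlapped almost wholly, and the log2 fold change was -0.15 ± 0.13 (adjusted p = 0.3975, edgeR). The partner chain col1a2 was at -0.07 ± 0.12 and the duplicate col1a1b at -0.03 ± 0.14. Type V collagen, which joins type I fibrils and limits their width, did not move as one. Both genes of its second chain rose, col5a2a by 0.65 ± 0.11 and col5a2b by 0.42 ± 0.10 on the log2 scale, while col5a1 (-0.16 ± 0.11), col5a3a (-0.07) and col5a3b (-0.07) did not pass. The level of col5a2a (chromosome 9, 42653188 to 42696409) was 122, 186 and 320 CPM (lowest, median and highest) at 4 dpf and 226, 300 and 483 CPM at 5 dpf, so the ages overlapped between 226 and 320 CPM.

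Among the basement membrane chains 4 passed, 2 in each direction, and 7 did not. This is 18.2% higher and 18.2% lower, near the 22.8% and 20.5% of all genes. The gene col4a2 (chromosome 9, 8761099 to 8882902), of the network found in most basement membranes, had a median of 27 CPM (13.1 to 48.2) at 4 dpf and of 44.3 CPM (31.7 to 86.7) at 5 dpf. It rose by 0.67 ± 0.13 on the log2 scale (adjusted p = 3.033e-05, edgeR), with overlapping ranges. The partner col4a1, with medians of 33.3 and 31 CPM, was at -0.01 ± 0.14, and col4a3, col4a4, col4a5 and col4a6 lay between -0.20 and 0.21 with no call. The type XVIII gene col18a1b, whose protein holds the endostatin fragment in mammals, rose by 0.42 ± 0.14, and its duplicate col18a1a was at -0.15 ± 0.10. The type XV gene col15a1b was at 0.08 ± 0.07.

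The 2 type VII genes, which encode the anchoring fibrils between epidermis and dermis, were lower at 5 dpf. The gene col7a1 (chromosome 6, 40184235 to 40312092) ranged from 17.1 to 60 CPM at 4 dpf (median 27.6) and from 9.98 to 32.7 CPM at 5 dpf (median 16.4). The ranges overlapped, and the log2 fold change was -0.87 ± 0.15 (adjusted p = 4.179e-06, edgeR). The related col7a1l changed by -0.58 ± 0.13. The transmembrane type XVII gene col17a1b, of the hemidesmosomes that hold basal skin cells, rose by 0.37 ± 0.10, and col17a1a (-0.13 ± 0.14) did not pass. Of 6 markers of the basal epidermis 1 was higher and 1 lower (16.7% each, beside 22.8% and 20.5% of all genes). Their summed level was 2913 to 10249 CPM at 4 dpf and 2103 to 8337 CPM at 5 dpf.

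Of the 8 microfibrillar chains 2 were higher and 1 lower, all of them of type XXVIII. The genes col28a1b and col28a1a rose by 0.82 ± 0.16 and 0.52 ± 0.12 on the log2 scale, and col28a2a fell by 0.72. Levels of col28a1b were low, with medians of 1.69 CPM (0.389 to 2.81) at 4 dpf and 2.89 CPM (0.81 to 5) at 5 dpf. The type VI chains, which form beaded filaments around cells, did not pass; the nearest was col6a1 at -0.28 ± 0.12 (adjusted p = 0.05929, edgeR), which passed under 5 of 8 other settings, DESeq2 among them, and in 13 of 48 omissions of 1 pool. Of the 3 chains of type VIII, a short-chain network collagen, col8a1a and col8a2 fell by 0.76 and 0.63 (66.7% lower), and col8a1b was at 0.39 ± 0.20. Among the 7 chains of the other fibril-associated types (XII, XIV, XVI, XIX and XXI) only col12a1b passed, at -0.32 ± 0.11 (14.3% lower, none higher).

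The 23 age calls were shared by every alternative setting apart from the block on replicate letters, where col9a3 was lost. Without the 3 libraries of low correlation 24 passed, the 23 and col4a4. Over all 52 chains the sign of the age change was the same at the 4 concentrations in 30 (57.7%), beside 55.3% of all genes tested. Taken by concentration, with 6 pools against 6, fewer chains passed. In DMSO 5 were higher (background 9.34%) and 0 lower (4.84%). At 0.88 µM 3 were higher (8.41%) and 4 lower (4.34%). At 1.57 µM 3 were higher (8.98%) and 8 lower (6.19%), and at 2.8 µM 1 was higher (7.1%) and 5 lower (5.27%).

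Single pools moved most of these smaller counts. At 1.57 µM the count of 11 stayed between 9 and 15 without any 1 pool. In DMSO the count of 5 went to 2 without any one of replicates A, F, G or H of 4 dpf or B, H or I of 5 dpf, and to 3 without C of 5 dpf. At 0.88 µM the count of 7 went to 4 without F of 4 dpf. At 2.8 µM the count of 6 went to 0 without E of 4 dpf, to 1 without G or H of 5 dpf, and to 3 without D of 4 dpf or E or F of 5 dpf. A test of whether the age change differed with concentration called 0 chains and 0 of all genes tested (0%; edgeR), and 0 chains had an unadjusted p under 0.05, beside 1.85% of all genes. The age change of col2a1a was -0.18 ± 0.23 in DMSO and -0.64, -0.61 and -0.51 at 0.88, 1.57 and 2.8 µM, none of which passed alone. That of col10a1a passed at all 4, with 1.04, 0.87, 0.92 and 0.71.

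**Figure D3:**
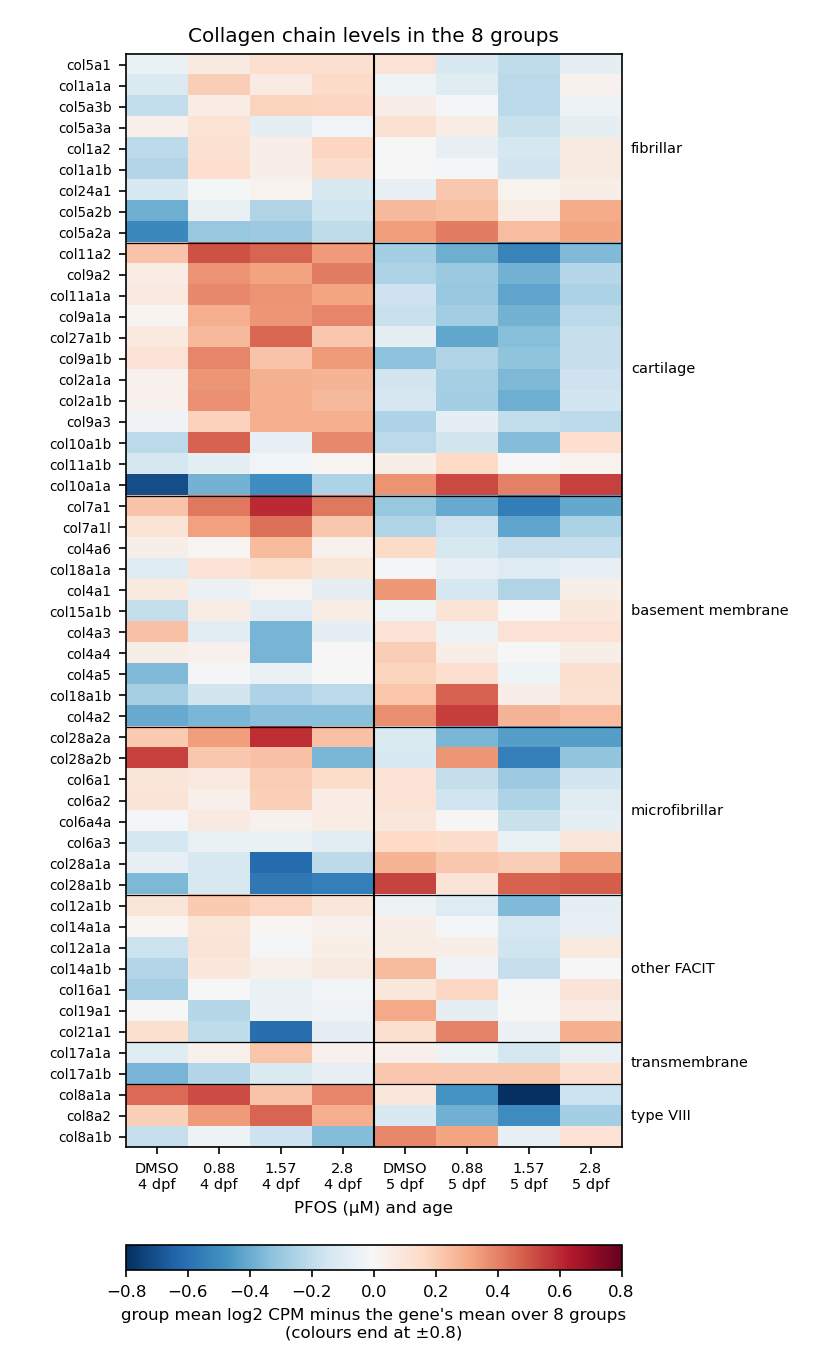
Group mean log2 CPM of each chain minus its mean over the 8 groups, in rows ordered by class and age change, with the 4 groups of 4 dpf on the left and of 5 dpf on the right; red is above and blue below the gene's own mean. The rows of types II, IX and XI other than col11a1b turn from red or near white to blue across the line between ages, col10a1a and col5a2a turn from blue to red, and the type I rows stay pale.

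Averaged over the 4 concentrations, most of the enzymes and chaperones that build collagen were lower at 5 dpf. Of 52 genes listed for this, 45 were tested, and 29 (64.4%) were lower and 4 (8.89%) higher, beside 20.5% and 22.8% of all genes. The median log2 fold change was -0.44. In DMSO alone 3 were lower (background 4.84%) and 2 higher (9.34%), with a median of -0.22. At 0.88, 1.57 and 2.8 µM 11, 21 and 12 were lower (4.34%, 6.19% and 5.27%) and 2, 3 and 1 higher (8.41%, 8.98% and 7.1%). No gene passed the test of that difference. Their summed level was 1020 to 1716 CPM at 4 dpf and 951 to 1735 CPM at 5 dpf. In the endoplasmic reticulum the prolyl 3-hydroxylase p3h1 (-1.18), its partner crtap (-0.67) and ppib (-0.44) of the same complex were lower. So were the prolyl 4-hydroxylase chains p4ha1a (-0.96) and p4ha1b (-0.93), the lysyl hydroxylases plod1a (-0.66), plod2 (-0.84) and plod3 (-0.63), the chaperone fkbp10b (-1.25) and the export factor mia3 (-0.27). Outside the cell, the N-propeptide protease adamts3 (-0.91) and the protease enhancer pcolceb (-0.79) were lower. The 4 genes that rose were loxl3a (1.10) and loxa (0.49) of the crosslinking oxidases, the C-propeptide protease bmp1b (0.34), and sparc (0.74), a collagen-binding matrix protein that is also on the bone list.

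Most collagen receptors and breakdown enzymes did not pass. Of 21 tested 4 were lower (19%, near the 20.5% of all genes) and 1 higher (4.76%, beside 22.8%): the collagen-binding integrin chains itga10 (-0.56) and itga11a (-0.38), the uptake receptor mrc2 (-0.63) and the membrane protease mmp14b (-0.62) fell, and itga11b rose by 0.36. Of 20 tested regulators of collagen genes 6 were lower (30.0%) and 3 higher (15.0%), beside 20.5% and 22.8% of all genes. The factors sox5 (-0.52) and sox6 (-0.51), partners of Sox9 at cartilage collagen genes, and mef2ca (-1.05), which acts in the pharyngeal skeleton, were among those that fell. The factors sox9a (0.31) and sp7 (0.59, needed for bone-forming cells) rose, and sox9b was at 0.02 ± 0.11. The calls of sox9a and sp7 are also counted above, on the cartilage and bone lists, so these lists are not independent.

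Zebrafish carry many collagen genes in duplicate, and 14 pairs of the chains bear the same name with a and b. In 4 pairs both copies passed in the same direction: col2a1 and col9a1 lower, col5a2 and col28a1 higher. In 7 pairs only 1 copy passed, in 3 neither did, and no pair had opposite calls. The sign was the same in 8 of 14. A call in only 1 copy does not show that the copies differ, since that difference was not tested, and reads shared by near-identical copies could be split between them in the counting.

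In 6 cases 2 chain genes lay within 150000 bases of each other. The 3 type IV pairs stood head to head, with 751 bases between col4a6 and col4a5 on chromosome 7 (50920437 to 51102480 and 51103232 to 51194431), 90939 bases between col4a1 and col4a2, and an overlap of 539 bases between col4a4 and col4a3 on chromosome 15 (35951888 to 36055402 and 36054864 to 36112795). The age change was -0.01 and 0.67 in col4a1 and col4a2, -0.20 and 0.21 in col4a6 and col4a5, and 0.15 in both col4a4 and col4a3. Strand use in the counting is not stated, so reads in the overlap of the last pair may be assigned to either gene. The type VI genes col6a2 and col6a1 lay 36206 bases apart on chromosome 11, on the same strand, at -0.22 and -0.28 with no call. The cartilage gene col9a2 lay 6202 bases from col16a1, and col9a1b lay 3495 bases from col19a1; the type IX genes fell (-0.59 and -0.52), and their neighbours were at 0.17 and 0.19 with no call.

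Chains of 1 helix or fibril were compared library by library, as deviations from the mean of their group over 48 libraries. Pearson's r was 0.97 for col1a1a and col1a2, 0.99 for col6a1 and col6a2, 0.94 for col9a1a and col9a2, and 0.93 for col11a1a and col11a2 (Spearman's rho 0.97, 0.97, 0.94 and 0.94). Each had an adjusted permutation p of 1.29e-05 over 22 tests, the smallest that 100000 permutations can give after adjustment here, and r was 0.97, 0.98, 0.92 and 0.92 without the 2 libraries farthest from the median. Over the 11 partner pairs the median r was 0.91 (0.43 to 0.99), beside 0.49 (-0.63 to 0.99) over the 1315 other pairs of chains. This is a description of values that share libraries and scaling. The permutation test is against an r of 0, and whether partners are more alike than other pairs of chains was not tested. The 3 lowest partner pairs were the type VIII pair col8a1a and col8a2, at 0.50 (rho 0.55, adjusted permutation p = 0.001, and 0.49 without the 2 farthest libraries), and both type IV pairs. For these r was 0.43 for col4a5 and col4a6 and 0.65 for col4a1 and col4a2 (rho 0.43 and 0.65, adjusted permutation p = 0.00567 and 1.29e-05), and 0.44 and 0.71 without the 2 farthest libraries. The value of col4a5 and col4a6 lay under the median of the other pairs. For col4a1 and col4a2 r was 0.92 at 4 dpf and 0.16 at 5 dpf, and at 5 dpf it was 0.61 in the 22 libraries left without the 2 of low correlation.

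The ratio of partner chains within a library needs no scaling between libraries, and it moved between ages for most of the 11 pairs. The log2 ratio of col4a1 to col4a2 counts was 0.21 ± 0.22 (SD within groups, 24 libraries) at 4 dpf and -0.50 ± 0.53 at 5 dpf, a change of -0.71, with -1.0 to -0.45 over the 4 concentrations. That of col5a1 to col5a2a went from 2.07 ± 0.17 to 1.26 ± 0.32, a change of -0.80. Without the 3 libraries of low correlation these changes were -0.58 and -0.74. Changes were smaller within the cartilage fibril, at 0.30 for col2a1a to col11a2 and 0.21 for col11a1a to col11a2; on quantile normalized values the first was 0.51. These 4 changes had an adjusted p of 2.75e-05 in a two-sided permutation test within concentrations over 11 pairs, the smallest the permutations can give after adjustment here. The ratio of col1a1a to col1a2 changed by -0.09 (adjusted permutation p = 0.0112) and that of col1a1b to col1a2 by 0.02 (0.517). In the same test col4a5 to col4a6 changed by 0.38 (0.00994), col6a1 to col6a2 by -0.06 (0.0112) and col9a2 to col9a3 by -0.21 (0.0144). The change of col9a2 to col9a3 no longer passed without the low-correlation libraries or on quantile normalized values. Those of col8a1a to col8a2 (-0.15, 0.398) and col9a1a to col9a2 (0.05, 0.375) did not pass.

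**Figure D4:**
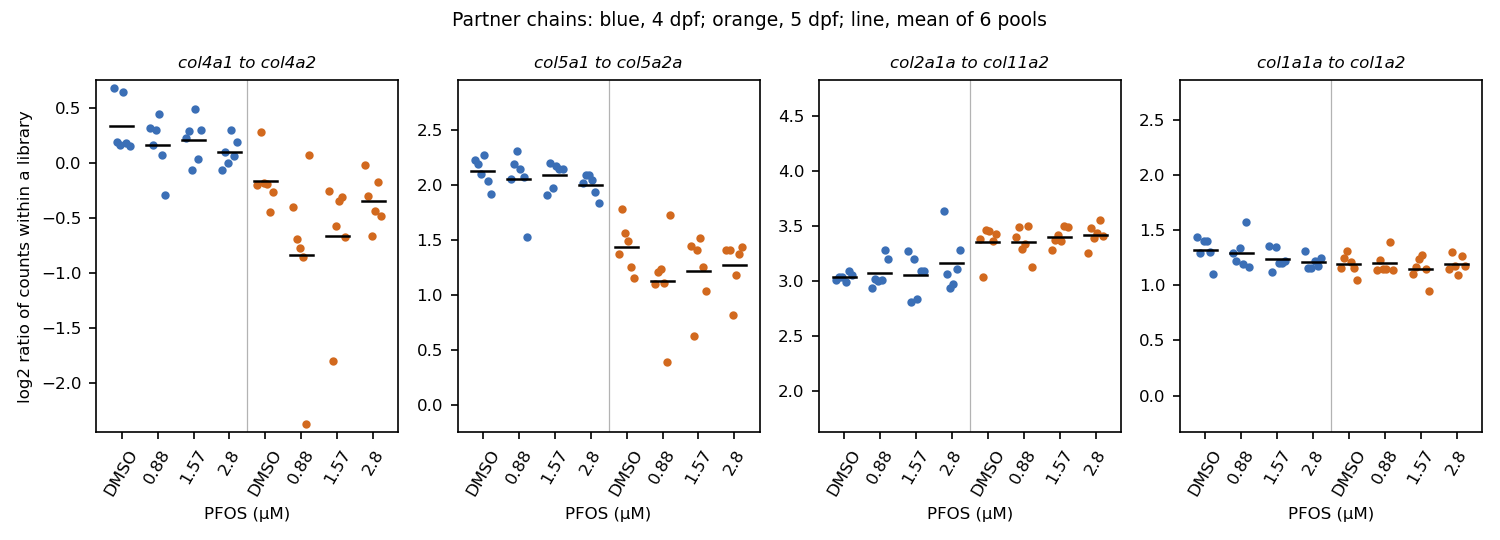
The log2 ratio of the counts of 4 pairs of partner chains in each of 48 libraries, by PFOS concentration, on axes of equal height, with 4 dpf in blue, 5 dpf in orange and a line at the mean of 6 pools. The ratios of col4a1 to col4a2 and of col5a1 to col5a2a drop between ages by 0.71 and 0.80, that of col2a1a to col11a2 climbs by 0.30, and that of col1a1a to col1a2 moves by 0.09; 2 libraries of 5 dpf lie far below the rest for col4a1 to col4a2.

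PFOS changed no collagen chain past the threshold at any concentration or age. In each of the 6 comparisons with DMSO of the same age 0 of 52 chains were called, and the background was 0% in either direction except at 1.57 µM and 5 dpf, where 0.0799% of all genes were lower (edgeR). At an unadjusted p under 0.05 there were 1, 3 and 1 chains at 0.88, 1.57 and 2.8 µM at 4 dpf (1.92%, 5.77% and 1.92%, beside 1.96%, 1.95% and 6% of all genes). At 5 dpf there were 0, 3 and 0 (0%, 5.77% and 0%, beside 5.18%, 5.04% and 1.92%). DESeq2 and limma on the quantile normalized values also called 0 in each. With sample quality weights in limma 3 chains were called at 2.8 µM and 4 dpf, col17a1b (0.62), col4a5 (0.59) and col5a2a (0.62), all higher; with these weights 0.2% of all genes were called higher.

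The size of change that the pools leave room for can be read from the intervals. The 95% interval of the log2 fold change lay within 1 of 0 for 49, 47 and 46 of 52 chains at 0.88, 1.57 and 2.8 µM at 4 dpf, and for 49 at each concentration at 5 dpf. This is 88.5% to 94.2% of the chains. Among all genes tested it was 79.1%, 78.8% and 73.3% at 4 dpf and 75.9%, 76.6% and 78.9% at 5 dpf. At 4 dpf most chains lay slightly above DMSO, 44, 43 and 43 of 52, with medians of 0.16, 0.18 and 0.20. Among all genes tested 51.0%, 52.8% and 53.7% were above DMSO, with medians of 0.01, 0.01 and 0.03. All 12 cartilage chains were above DMSO at each concentration (medians 0.31, 0.23 and 0.29), as were 9, 8 and 9 of the 9 fibrillar chains (0.25, 0.20 and 0.31). At 5 dpf most chains lay below DMSO: 20, 7 and 15 were above it (38.5%, 13.5% and 28.8%), with medians of -0.04, -0.19 and -0.06. Among all genes tested 49.6%, 50.3% and 49.3% were above DMSO at 5 dpf. By class, 6, 3 and 5 of the 12 cartilage chains and 6, 1 and 5 of the 9 fibrillar chains were above DMSO at 5 dpf. Markers of several other tissues, though not of all, also lay to one side of DMSO at 4 dpf. At 2.8 µM 7 of 7 of skeletal muscle (median 0.34), 6 of 6 of basal epidermis (0.21), 10 of 11 of fibroblasts and tendon (0.21) and 12 of 12 of cartilage without collagens (0.22) were above DMSO. So were 7 of 9 of bone (0.29) and 5 of 6 of endothelium (0.21). Notochord markers were split, with 2 of 4 above (0.06), and of the pancreas markers 2 of 8 were above (-0.98). Of 8 neuron markers 1 was above DMSO at 2.8 µM (median -0.24), 0 at 1.57 µM (-0.21) and 2 at 0.88 µM (-0.08). The summed level of the neuron markers was 1237 to 2348 CPM in DMSO and 1200 to 2089 CPM at 2.8 µM, and that of the muscle markers 3265 to 6621 and 3242 to 9856 CPM, with overlapping groups. At 5 dpf 5, 7 and 7 of the 8 neuron markers were above DMSO at 0.88, 1.57 and 2.8 µM. Of the fibroblast and tendon markers 2, 3 and 3 of 11 were above it, and of those of basal epidermis 2, 3 and 4 of 6. The part of such tissue shares in the position of the chains was not tested. The 3 comparisons of an age share their DMSO pools, and no trend per µM and no difference of the 2.8 µM change between ages passed in any chain (edgeR). With sample quality weights 4 chains passed for the trend at 4 dpf (col17a1b, col18a1a, col4a5 and col5a2a, all with a positive slope, beside 0.724% of all genes) and 1, col17a1b, for the difference between ages (negative, beside 0.684% of all genes).

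**Figure D5:**
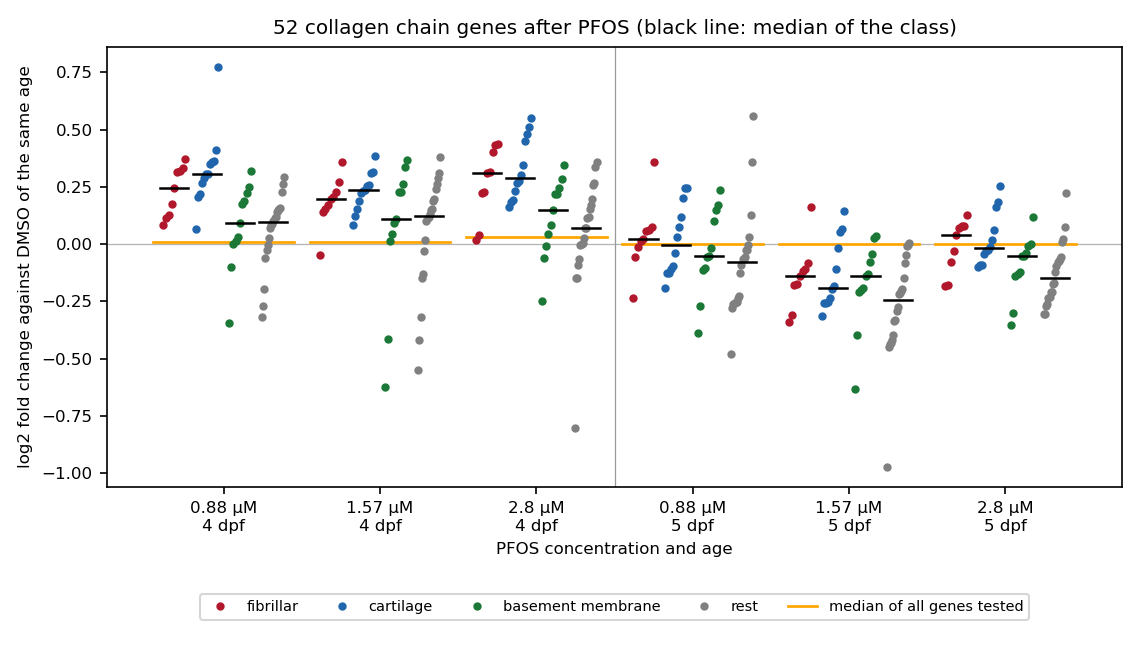
The log2 fold change of each chain against DMSO of the same age for the 3 PFOS concentrations at 4 dpf (left) and 5 dpf (right), coloured by class, with black lines at class medians and orange lines at the median of all genes tested. At 4 dpf the class medians of the fibrillar chains (0.20 to 0.31) and cartilage chains (0.23 to 0.31) lie above the orange lines. At 5 dpf the fibrillar medians (-0.14 to 0.04) lie on both sides of 0, and the cartilage medians (-0.19 to 0) lie at or below it.

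Single chains with the smallest p in these comparisons show how far the pools overlapped. At 4 dpf, col4a3, a chain of the type IV network found in kidney and eye in mammals, ranged from 7.97 to 14.2 CPM in DMSO (median 10.5) and from 5.49 to 9.08 CPM at 1.57 µM (median 6.84). These groups overlapped only between 7.97 and 9.08 CPM, and the log2 fold change was -0.62 ± 0.21 (adjusted p = 1, edgeR); at 2.8 µM the range was 4.08 to 12.3 CPM. The other was col28a1a at -0.55 ± 0.23, with 10.8 to 16.9 CPM in DMSO and 6.67 to 10.6 CPM at 1.57 µM, which did not overlap (1 of 52 chains, beside 0.0599% of all genes), and 5.54 to 16.1 CPM at 2.8 µM. In each of the other PFOS comparisons 0 of 52 chains failed to overlap with DMSO, beside 0.0499% to 0.185% of all genes.

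At 2.8 µM and 4 dpf the smallest p values were those of col10a1a (0.51 ± 0.25) and col9a1a (0.48 ± 0.26), both with an adjusted p of 0.748 (edgeR). For col10a1a the lowest, median and highest levels were 299, 444 and 670 CPM in DMSO and 355, 604 and 1147 CPM at 2.8 µM, where the highest value came from replicate A, 1 of the 3 libraries with a low correlation. At 0.88 µM they were those of col10a1b (0.77 ± 0.33) and col15a1b (0.25 ± 0.14). The hemidesmosome gene col17a1b had medians of 18.5, 21.5, 23.8 and 26.2 CPM in DMSO and at 0.88, 1.57 and 2.8 µM at 4 dpf. Its ranges overlapped (16 to 27.4 CPM in DMSO and 15.7 to 37.2 CPM at 2.8 µM), and the slope was 0.13 ± 0.07 on the log2 scale per µM (adjusted p = 0.7772, edgeR).

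At 5 dpf the smallest p values at 1.57 µM were those of the type VIII genes col8a1a (-0.97 ± 0.37) and col8a2 (-0.42 ± 0.18), with an adjusted p of 0.923 (edgeR). The lowest, median and highest level of col8a2 was 32.1, 50.9 and 62.3 CPM in DMSO and 30.5, 35.3 and 41.3 CPM at 1.57 µM, and these groups overlapped. At 0.88 µM col24a1 (0.36 ± 0.23) and col8a2 (-0.25 ± 0.18), and at 2.8 µM col4a6 (-0.35 ± 0.27) and col28a2a (-0.30 ± 0.24), had the smallest p values, none near the threshold.

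All collagen chains together took between 4.00% and 9.57% of the counts of a library. These shares are of counts without the TMM factor, so they need not follow the CPM levels. The group medians at 4 dpf were 5.80% in DMSO and 6.40%, 7.23% and 6.28% at 0.88, 1.57 and 2.8 µM. At 5 dpf they were 6.04% in DMSO and 5.34%, 5.19% and 5.34% at the 3 concentrations, and the ranges of all 8 groups overlapped.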

How the data were processed

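PolyA RNA of 48 pools was sequenced and, per the submitters' processing notes, processed with STAR 2.5.3a, Partek 8.0.19.0428 and GRCz11. The annotation and the strand setting are not stated. The deposited table holds expected counts by the authors for 25377 genes (81.2% whole within 0.01), and a second deposited table holds log2 quantile normalized values. Expected counts were rounded, filtered by filterByExpr (20021 genes kept), scaled by TMM and fitted over all 48 libraries and 8 groups with edgeR 4.0.16 (R 4.3.3), with Benjamini-Hochberg adjustment over every tested gene at 0.05. Each SE was derived from the log2 fold change and its F statistic; log2 CPM used a prior count of 2. Code was tested on simulated data. Alternatives used limma 3.58.1, DESeq2 1.42.0, other filters and scalings, and fewer libraries.

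The members and lists were chosen with earlier results of these data known. Named were, per class, the 3 chains with the most counts, up to 2 called chains per direction for age (mean log2 CPM of at least 1), the 2 smallest p values per PFOS comparison and the partner pairs. Others are named to complete small counts, chosen after their values were seen. Of the called processing genes, regulators and cartilage markers only some are named, also chosen after their values were seen. Other markers went as follows between ages: endothelium 2 of 6 higher and 1 lower, fibroblast and tendon 1 and 4 of 11, neuron 0 and 2 of 8, notochord 2 and 0 of 4, retina and lens 1 and 2 of 7, skeletal muscle 3 and 1 of 7. Among all genes tested 22.8% were higher and 20.5% lower.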

Additional observations from a re-analysis of the deposited data

Results flagged for a closer look

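In 328 gene and group combinations (41 genes), 20 had 1 pool far from the other 5, by a gap to its neighbour above Dixon's critical share of the range; chance flags about 1 in 20 groups. Values are log2 CPM, with the other pools' range where given. In 7 the pool was the highest, replicate D of 0.88 µM at 4 dpf: col5a1 10.29 (others 9.37 to 9.68), col7a1 5.91 (4.59 to 4.95), col7a1l 5.21, col17a1a 8.35, col18a1a 8.49, col28a2a 6.41 and col4a2 5.58. In 5 it was the highest, replicate D of 1.57 µM at 5 dpf, whose correlation with other libraries was low: col24a1 4.94, col4a2 6.44 (5.04 to 5.41), col5a2a 8.92 (7.82 to 8.21), col5a2b 6.37 and col9a3 10.51.

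In 3 it was the lowest, replicate A of 2.8 µM at 4 dpf, also of low correlation: col28a1b -1.06, col8a1a 0.88 and col8a1b -1.82. Replicate C of 2.8 µM at 5 dpf was highest for col4a1 (5.82) and col8a2 (5.95). The lowest pools were replicate G of 2.8 µM at 4 dpf for col15a1b (6.71), replicate H of 0.88 µM at 5 dpf, of low correlation, for col28a1a (2.67), and replicate H of DMSO at 4 dpf for col8a1a (1.13).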

How the results depend on the processing

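For the mean age change 23 chains passed, and 23 to 25 did without 1 pool at a time, 23 or 24 under the other settings, and 30 with quality weights; 8 higher remained without any 1 pool, with 15 to 17 lower. Counts by concentration were less steady. The DMSO count of 5 was 3 without a filter, 3 with the replicate block, 13 with quality weights and 2 to 6 without 1 pool. At 0.88 µM 7 became 15 with quality weights, 1 with only the groups compared and 4 to 9 without 1 pool. At 1.57 µM 11 became 19 without the low-correlation libraries, 21 with quality weights and 9 to 15 without 1 pool. At 2.8 µM 6 became 18 with quality weights, 0 with only the groups compared and 0 to 7 without 1 pool. For PFOS, quality weights called 3 chains at 2.8 µM and 4 dpf, 4 for the trend at 4 dpf and 1 for the difference between ages of the 2.8 µM change; every other setting, and each omission of 1 pool (0 to 0), called 0 in every PFOS and interaction test. The cause was not tested.

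What the replicate letters stand for is not in the labels, and the main tests did not pair samples by letter. Deviations of same-letter pools had correlations over 0.1 in 0 to 4 of the 3 to 5 letters shared with DMSO. The most was 4 of 5, at 2.8 µM and 5 dpf, with a median of 0.18 beside 0.023 for other letters. So few pools per comparison cannot decide whether letters mark a shared origin. With the replicate block 23 chains passed for age, col9a3 lost and col6a1 gained. Reversed signs lay near 0: col1a1b 0.04 and col12a1a 0.01 with the block, col14a1b 0.00 with a filter of 1 CPM, -0.04 without the low-correlation libraries, -0.04 with limma on quantile normalized values and -0.02 with quality weights; without 1 pool col1a1b spanned -0.08 to 0.01, col12a1a -0.06 to 0.02, col14a1b -0.05 to 0.06 and col4a1 -0.09 to 0.04. Ratio alternatives were chosen after seeing the data. On quantile normalized values the ratio change was 0.51 for col2a1a to col11a2 (0.30 on CPM) and -0.04 for col1a1b to col1a2. For col1a1a to col1a2 it was -0.10 and no longer passed. For col9a1a to col9a2 it was -0.16 (0.05 on CPM), passing only here (adjusted permutation p = 0.00805). The change of col9a2 to col9a3, -0.21 and passing on CPM, was -0.02 on quantile normalized values (adjusted permutation p = 0.821). Without the low-correlation libraries it was -0.16 (adjusted permutation p = 0.0562), so it passed in neither alternative. Without those libraries the change of col8a1a to col8a2 was -0.32 and then passed. At 5 dpf alone r was 0.16 for col4a1 and col4a2 and 0.40 for col4a5 and col4a6. DESeq2 was not run for tests over several groups. Depth limits chains with few counts, such as col28a1b and col8a1b.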
